A study of Homo sapiens with 13 samples.

Results

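Early FGF2 was tested in H9 human embryonic stem cells while doxycycline switched on NEUROG2, and RNA was sequenced on day 6. The comparison used 4 of the 13 libraries of the series, 2 with FGF2 and 2 controls, chosen by their labels and not by any measured value. Early FGF2 cultures received 20 µg/ml FGF2, as the labels give the dose, together with 1 µg/ml doxycycline on all 6 days. FGF2 is usually given to cells in ng/ml, so the unit in the labels may be an error, which could not be checked here. Early control cultures received the same doxycycline and no added FGF2. Both spent 2 days in E8 and then 4 days in 3N, a neural medium. E8 is a defined stem cell medium that itself contains FGF2, so the controls were not free of this factor at the start. The 4 day-12 libraries of the same sequencing run served as a second pair of groups and, in the same fit, helped to set the spread behind every day-6 test: late FGF2 cultures, given FGF2 for 6 days after doxycycline was withdrawn, and late controls, which had the same withdrawal and no FGF2. The libraries of a group are titled hES-N2G1 and hES-N2G2, called replicates 1 and 2 here, while their source names give hES-N1. Whether the numbers mark clones or cultures is not stated. Each library came from 1 well, so p-values measure the spread between these wells only, which may be technical. A set of 12 genes followed the number in all 8 libraries, and the fit reported does not pair libraries by it.

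FGF2 is a secreted growth factor that binds FGF receptor tyrosine kinases with heparan sulfate as a coreceptor. The activated receptor signals through adaptor proteins to RAS and the kinases RAF, MEK and ERK, and ERK activity switches on a set of feedback genes: the ETV transcription factors, the Sprouty and SPRED inhibitors, and the dual specificity phosphatases that remove phosphate from ERK. FGF2 keeps human embryonic stem cells pluripotent, and in the neural lineage it supports the division of progenitors. NEUROG2 is a proneural transcription factor that drives progenitors out of the cell cycle and into the neuronal programme through NEUROD1, NEUROD4, NHLH1 and other factors.

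The 2 early FGF2 libraries held 29286902 and 28054897 counted reads, and the early controls held 23555246 and 23775362. Of 60554 genes in the table, 20142 had enough reads to be tested. Levels are given as CPM, the reads of a gene in every 1000000 reads of a library after TMM scaling. A log2 change is FGF2 over control, with its 95% interval from the fit over the 8 libraries. One library stood apart before any comparison: early FGF2 replicate 2 lay at 38.0 on the first principal component of the day-6 libraries, against -13.0 for early FGF2 replicate 1 and -23.0 and -2.0 for the controls. The scatter between the early FGF2 replicates, as chi-square per degree of freedom against counting error, was 21.4, while it was 3.45 between the early controls and 3.03 and 3.46 in the day-12 groups. Gene values below are therefore given for each library, and list medians for each FGF2 library beside those of the fit.

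The cells had the markers of induced neurons in both groups. STMN2, a stathmin of growing neurites, was at 3070 and 3599 CPM in the FGF2 libraries, against 3063 and 3258 CPM in the controls. The summed level of the 5 neuronal markers STMN2, DCX, TUBB3, MAP2 and ELAVL4 was 6721 and 6499 CPM with FGF2 and 6623 and 6814 CPM without it. Of 4 stem cell markers, TDGF1 was at 0 in all 4 libraries, NANOG had 1 read in 1 FGF2 library, and POU5F1, the core pluripotency factor, was at 0.208 and 0.222 CPM with FGF2 and at 0.0860 and 0.0858 CPM in controls. The fourth, LIN28A, an RNA-binding protein also made in early neural cells, was at 137 and 140 CPM with FGF2 and at 140 and 147 CPM in controls. SOX10 of neural crest and Schwann cells, and TBXT and SOX17 of mesendoderm, were at 0 in all 4. FOXD3, the other neural crest marker, had 1 and 0 reads with FGF2 and 3 and 1 in controls. MIXL1, the remaining mesendoderm marker, had 0 and 3 reads with FGF2 and 5 and 3 in controls. The astroglial pair GFAP and AQP4 summed to 0.693 and 0.518 CPM with FGF2, against 0.559 and 0.343 CPM in controls. In bulk RNA, fewer cells of a type and less RNA per cell cannot be told apart.

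With early FGF2, 0 of 20142 genes (0.0%) passed an adjusted p of 0.05, with a smallest adjusted p of 0.927 in edgeR's quasi-likelihood test. At an unadjusted p under 0.05 there were 658 genes (3.27%), of which 390 (1.94%) were higher and 268 (1.33%) lower. DESeq2 and limma voom also called 0 genes, with 314 and 682 at an unadjusted p under 0.05, and edgeR on the 4 day-6 libraries alone called 0, with 291. The absence of calls came with narrow intervals for genes that were well expressed. At a mean of 10 CPM or more, 10142 of 10144 genes had a 95% interval that lay wholly within a 2-fold change either way, and 9997 lay within 1.5-fold. These intervals rest on a spread shared by the 4 groups. The early FGF2 replicates scattered more than the other pairs, so the early intervals may be too narrow. At any level, 15314 of the 20142 genes had an interval within 2-fold, and 14394 did in limma voom with library weights. Below 1 CPM the intervals were wide, and a change of 2-fold was not detectable for most such genes. Across all genes tested the median log2 change was 0.01, and 10517 genes (52.2%) were above 0. Both FGF2 libraries were above both controls for 3144 genes (15.6%) and below both for 2500 genes (12.4%), or 28.0% in either direction.

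**Figure D1:**
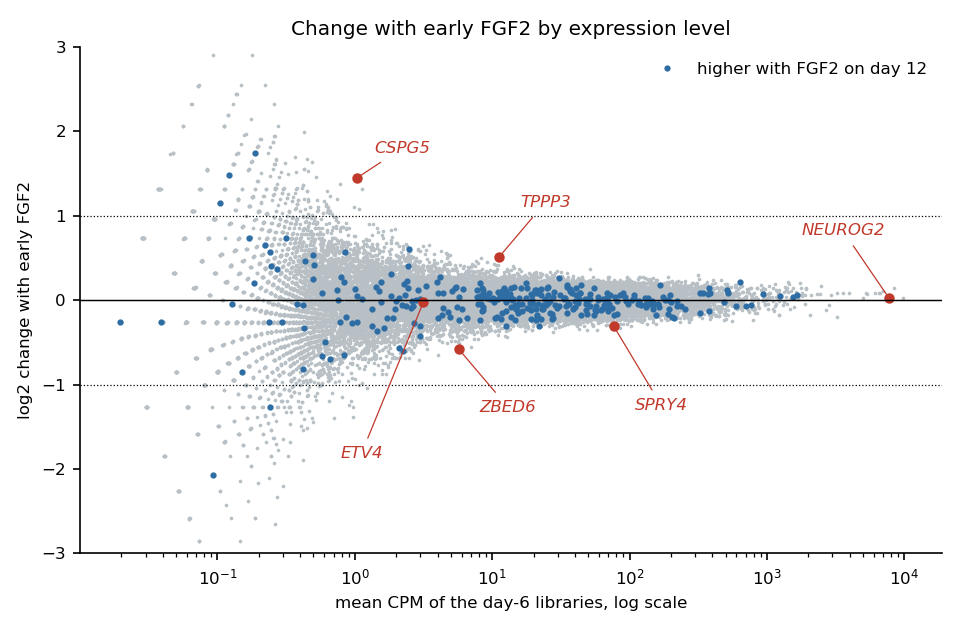
Log2 change with early FGF2 (vertical axis) against the mean CPM of the day-6 libraries (horizontal axis, log scale) for 20013 genes. Blue points are the 329 genes called higher with FGF2 on day 12, red points are named genes, and dotted lines mark a 2-fold change; 18 genes beyond the axis and 111 with no count in a group are not drawn. The cloud narrows as expression increases, and the blue points lie on both sides of 0.

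NEUROG2, the induced gene, was at 7831 and 7713 CPM in the early FGF2 libraries and at 7708 and 7544 CPM in the early controls. All 4 values lay close together, with the FGF2 libraries just above the controls, and the log2 change was 0.03 (interval -0.12 to 0.17). The gene lies on chromosome 4 at 112513516 to 112516172 (GRCh38), and the counts were not split between the cells' own gene and the inducible copy. NEUROD1, a direct target of NEUROG2, was at 311 and 291 CPM with FGF2, against 306 and 295 CPM in controls. NHLH1, another target, was at 2115 and 2151 CPM with FGF2 and at 2040 and 2066 CPM in controls. The NEUROD1 groups overlapped and the NHLH1 groups did not, with log2 changes of 0.00 (-0.16 to 0.17) and 0.06 (-0.11 to 0.22).

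In the wider list of proneural factors and NEUROG2 targets, of 30 genes listed, 27 were tested and 0 were called, and 25 of the 27 intervals lay within 2-fold. The list median was 0.03, against 0.01 for all genes, with 0.05 in FGF2 replicate 1 and 0.02 in replicate 2, and 20 members were above 0 and 7 below. Both FGF2 libraries were above both controls for 6 members (22.2%, against 15.6% of all genes) and below for 1 (3.70%, against 12.4%). DLL3, a Notch ligand of newborn neurons, was at 1707 and 1658 CPM with FGF2 and at 1685 and 1540 CPM in controls, and its groups overlapped. RND2, a small GTPase that acts downstream of NEUROG2 in migration, was at 168 and 197 CPM with FGF2, against 154 and 170 CPM in controls, with a log2 change of 0.17 (-0.02 to 0.36).

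None of the feedback genes of FGF signalling was called with early FGF2. ETV4, a transcription factor switched on by ERK (chromosome 17, 43527844 to 43579620, GRCh38), was at 3.05 and 3.22 CPM in the early FGF2 libraries and at 3.22 and 3.13 CPM in the early controls. These groups overlapped, and the log2 change was -0.02 (-0.46 to 0.42), from 88 and 87 reads with FGF2 and 75 and 73 in controls. DUSP6, the phosphatase specific for ERK, was at 20.4 and 19.7 CPM with FGF2, against 21.8 and 23.3 CPM in controls. Both FGF2 libraries were thus below both controls, by less than the fit could call, with a log2 change of -0.17 (-0.38 to 0.04) and an unadjusted p of 0.11. Another gene overlaps 40.5% of the exon bases of DUSP6, and the library kit does not keep the strand, so reads of the pair cannot be told apart.

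SPRY4, an inhibitor that acts between receptor and RAS, was at 79.3 and 57.6 CPM with FGF2 and at 89.4 and 80.9 CPM in controls. The FGF2 libraries were the lower pair, with replicate 2 the lowest, and the log2 change was -0.31 (-0.59 to -0.04; unadjusted p 0.028, adjusted p 0.927 in edgeR's quasi-likelihood test). Its relative SPRY2 was at 31.8 and 31.4 CPM with FGF2, against 30.1 and 30.5 CPM in controls, a log2 change of 0.06 (-0.13 to 0.25). EGR1, an immediate early transcription factor, was at 1.70 and 2.04 CPM with FGF2 and at 1.55 and 2.06 CPM in controls. Its groups overlapped, at a level where the interval still ran from -0.48 to 0.58.

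**Figure D2:**
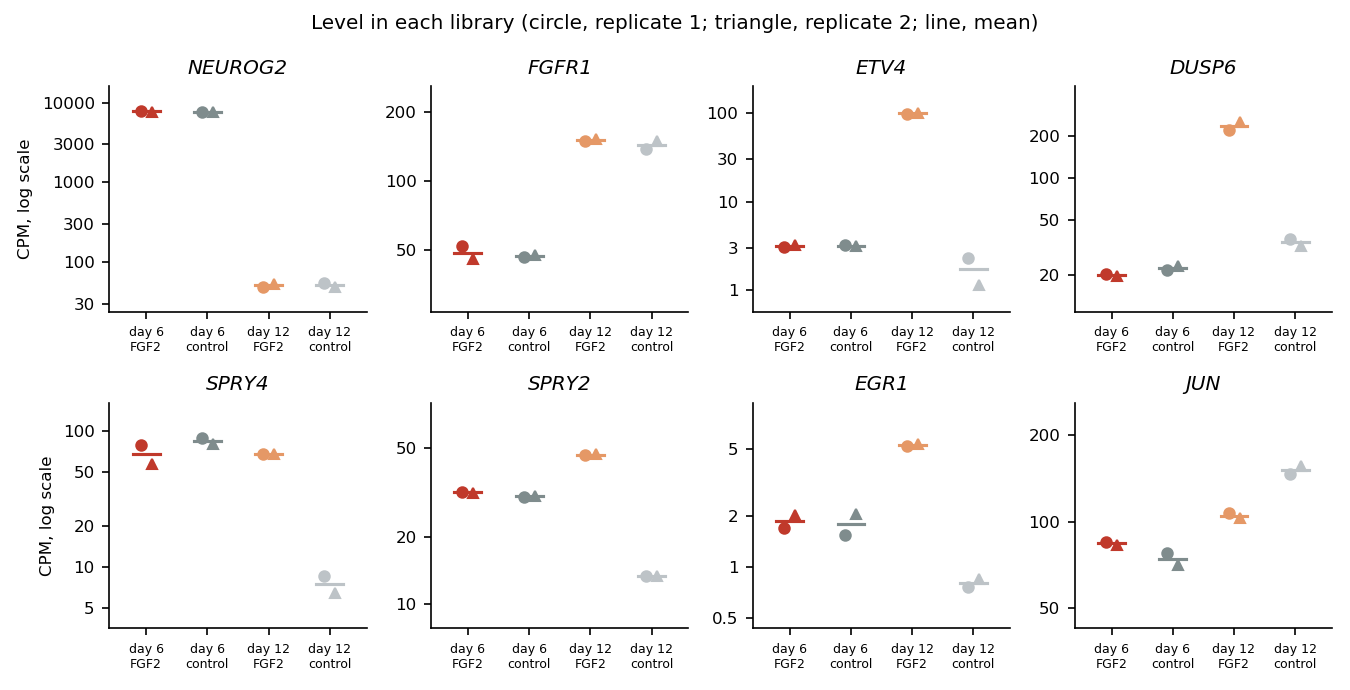
CPM of 8 genes in each library (log scale), for day 6 with FGF2, day 6 control, day 12 with FGF2 and day 12 control; circles are replicate 1, triangles replicate 2 and lines the mean. On day 6 the FGF2 and control points of NEUROG2, FGFR1, ETV4, SPRY2 and EGR1 lie side by side, whereas on day 12 ETV4 is at 96.7 and 99.6 CPM with FGF2 against 2.31 and 1.15 CPM in controls.

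The promoters of SPRY4, DUSP6 and EGR1 are shown because these genes were at or below their controls, or overlapped them, with early FGF2 and were called higher with late FGF2. Each sequence is 300 bases of RefSeq (GRCh38.p14), from 250 before to 50 after the start used for the gene. SPRY4 is at chr5:142324198-142324497 on the minus strand, DUSP6 at chr12:89352452-89352751 on the minus strand, and EGR1 at chr5:138465229-138465528 on the plus strand. In the annotation used for exon lengths, SPRY4 and DUSP6 begin further upstream, at 142326455 and 89353271. Their windows therefore lie inside those gene spans, and other starts of these genes are not shown. Capitals mark GGAA, the core that ETS factors such as ETV4 bind, or TTCC, the same core on the other strand.
SPRY4: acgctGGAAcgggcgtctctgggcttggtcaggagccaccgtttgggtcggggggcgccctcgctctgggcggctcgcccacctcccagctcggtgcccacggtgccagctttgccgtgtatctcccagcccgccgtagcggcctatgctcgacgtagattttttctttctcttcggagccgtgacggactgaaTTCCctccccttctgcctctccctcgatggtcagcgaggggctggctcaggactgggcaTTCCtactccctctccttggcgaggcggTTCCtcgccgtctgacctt
DUSP6: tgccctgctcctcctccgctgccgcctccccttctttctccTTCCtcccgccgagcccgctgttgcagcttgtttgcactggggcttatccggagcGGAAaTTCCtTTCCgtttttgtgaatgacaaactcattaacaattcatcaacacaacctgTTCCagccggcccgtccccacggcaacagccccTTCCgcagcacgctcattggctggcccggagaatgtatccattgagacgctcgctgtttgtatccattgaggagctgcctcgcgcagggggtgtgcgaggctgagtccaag
EGR1: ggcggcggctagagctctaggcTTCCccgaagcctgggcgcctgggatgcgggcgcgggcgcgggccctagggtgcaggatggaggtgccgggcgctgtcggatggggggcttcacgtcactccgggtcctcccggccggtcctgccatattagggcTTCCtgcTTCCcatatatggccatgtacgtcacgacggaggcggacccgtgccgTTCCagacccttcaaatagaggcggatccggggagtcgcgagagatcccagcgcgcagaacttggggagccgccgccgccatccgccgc
The windows hold 4, 6 and 4 such matches in that order. The core is common: 95.5% of 35116 promoters of the same length hold it on either strand, with a median of 3 matches, so most promoters share these letters. The longer CCGGAA is in 17.2% of promoters and in none of the 3 shown. Of the 14 feedback genes whose FGF2 effect differed between day 6 and day 12, 8 had a promoter sequence available. CCGGAA was in 3 of these 8 (ETV1, SPRY2 and KITLG).

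In all, 32 feedback genes were listed and 29 were tested with early FGF2; EGR2, EGR3 and FOSL1 had too few reads. The list holds KITLG and SHC4 because their day-12 response was known when it was made. None of the 29 was called (0.0% of all genes), 12 were above 0 and 17 below, and the median was -0.03, against 0.01 for all genes. The median was 0.00 in FGF2 replicate 1 and -0.06 in replicate 2, each over the mean of the controls. Both FGF2 libraries were above both controls for 4 members (IER3, SPRY2, DUSP14 and PHLDA1), or 13.8%, near the 15.6% of all genes. They were below for 4 (SPRY3, SPRY4, DUSP6 and ETV5), also 13.8%, near the 12.4% of all genes. For 24 of the 29 the interval lay within 2-fold, and the other 5 (EPHA2, FOS, IER3, SPHK1 and SPRY3) were all under 4 CPM. ETV5, a relative of ETV4, was at 40.2 and 38.3 CPM with FGF2, against 41.3 and 41.7 CPM in controls.

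IER3, an ERK-binding regulator of cell survival, had the largest value above 0 in the list. It was at 3.05 and 2.70 CPM with FGF2 and at 1.98 and 1.63 CPM in controls, with both FGF2 libraries above both controls. The log2 change was 0.67 (0.15 to 1.19) at an unadjusted p of 0.014, and the adjusted p was again 0.927 in edgeR's quasi-likelihood test. Another gene overlaps 26.5% of its exon bases. KITLG, the ligand of the receptor KIT, was at 1.73 and 1.44 CPM with FGF2 and at 2.02 and 1.67 CPM in controls. CCND1, the D cyclin that growth factors induce, was at 11.8 and 7.55 CPM with FGF2, against 12.5 and 9.87 CPM in controls, and its groups overlapped.

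Ligands and receptors of the FGF family gave no call. The messenger RNA of FGF2 itself, which the added protein does not contribute to, was at 2.53 and 1.78 CPM with early FGF2 and at 2.49 and 3.00 CPM in controls. FGF18 was at 39.3 and 43.7 CPM with FGF2 and at 37.3 and 39.7 CPM in controls, and FGF9 at 6.17 and 7.44 CPM with FGF2 and at 6.79 and 6.69 CPM in controls. Of 16 secreted ligands 7 were tested, 0 were called, and 4 intervals lay within 2-fold. FGF22 was above the controls in both FGF2 libraries (0.381 and 0.741 CPM, against 0.129 and 0.215 CPM in controls; unadjusted p 0.016), at levels of a few reads.

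Among receptors, FGFR1 was at 51.9 and 45.7 CPM in the FGF2 libraries, against 46.6 and 47.6 CPM in controls (log2 0.05, -0.13 to 0.24). FGFR2 was at 4.06 and 4.11 CPM with FGF2 and at 4.00 and 4.51 CPM in controls. FGFR3 was at 8.08 and 6.04 CPM with FGF2 and at 7.78 and 6.27 CPM in controls, and FGFR4 at 1.18 and 1.00 CPM with FGF2 and at 0.945 and 1.12 CPM in controls. All 4 receptors overlapped between the groups. Per kilobase of exon the order of levels was FGFR1, FGFR3, FGFR2 and FGFR4, at 3.53, 1.46, 0.539 and 0.226 CPM per kilobase with FGF2 and at 3.40, 1.45, 0.561 and 0.213 in controls. The replicate values of the 4 receptors, per kilobase, did not cross in this order.

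Of the 23 receptors, coreceptors and heparan sulfate enzymes, all were tested and 0 were called, with 10 above 0 and 13 below. Members with both FGF2 libraries above the controls numbered 3 of 23, near the 15.6% of all genes, and those below numbered 4 (17.4%, against 12.4% of all genes). The list median was -0.04, with 0.00 in FGF2 replicate 1 and -0.09 in replicate 2. HS6ST3, which adds sulfate to heparan sulfate, was at 5.37 and 5.59 CPM with FGF2 and at 7.74 and 6.39 CPM in controls, with a log2 change of -0.37 (-0.64 to -0.10; unadjusted p 0.011). SDC4, a syndecan coreceptor, was at 0.485 and 0.518 CPM with FGF2, against 1.16 and 1.07 CPM in controls, a log2 change of -1.15 (-2.09 to -0.22; unadjusted p 0.019). Both genes were lower in each FGF2 library, and neither passed the adjusted test. KLB, the coreceptor of hormonal FGFs, was at 0.208 and 0.296 CPM with FGF2 and at 0.0430 and 0.0429 CPM in controls, which was 1 read per control library.

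In the RAS to ERK cascade all 30 listed members were tested, all 30 intervals lay within 2-fold, and 0 were called. The median was -0.06, from 0.04 in FGF2 replicate 1 and -0.14 in replicate 2, so the 2 FGF2 libraries lay on opposite sides of the controls. MAP2K2, one of the 2 MEK kinases, was at 119 and 136 CPM with FGF2 and at 107 and 115 CPM in controls (log2 0.20, 0.01 to 0.38, unadjusted p 0.036). NF1, a brake on RAS whose exons sum to 27130 bases, was at 116 CPM in FGF2 replicate 1 and 76.2 CPM in replicate 2, against 116 and 110 CPM in the controls. Only replicate 2 was low for NF1.

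None of the 18 immediate early genes tested was called. Of these, 17 (94.4%, against 52.2% of all genes) were above 0, and the median was 0.05, with 0.02 in FGF2 replicate 1 and 0.13 in replicate 2. Both FGF2 libraries were above the controls for 4 (IER3, JUN, ATF3 and CYR61; 22.2%, against 15.6% of all genes) and below for 0. Their median exon length was 3188 bases, a length at which replicate 2 was raised for genes in general. The part of length in the values of this list was not tested. In FGF2 replicates 1 and 2 the log2 ratio to the control mean was 0.62 and 0.48 for IER3, 0.20 and 0.16 for JUN, and 0.18 and 0.22 for ATF3. JUN, a subunit of the AP-1 factor, was at 85.3 and 82.9 CPM with FGF2, against 77.9 and 70.9 CPM in controls, a log2 change of 0.18 (0.01 to 0.35, unadjusted p 0.044). SRF, the factor that switches on many of these genes, was at 76.8 and 74.9 CPM with FGF2 and at 76.9 and 74.7 CPM in controls. FOS itself had 5 and 10 reads with FGF2 and 1 and 7 reads in controls, too few to show a 2-fold change.

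Neuronal genes gave no call either. All 30 pan-neuronal genes were tested, all 30 intervals lay within 2-fold, 0 were called, and the median was 0.03, with -0.01 in FGF2 replicate 1 and 0.09 in replicate 2. TUBB3, the neuronal tubulin, was at 293 and 316 CPM with FGF2 and at 239 and 292 CPM in controls (log2 0.20, unadjusted p 0.055), with 35.8% of its exon bases shared with another gene. STMN4, a stathmin, was at 447 and 562 CPM with FGF2, against 409 and 447 CPM in controls (0.24, 0.04 to 0.44, unadjusted p 0.024). DCX, a microtubule protein of migrating neurons, was at 2244 CPM in FGF2 replicate 1 and 1639 CPM in replicate 2, against 2229 and 2159 CPM in controls. Once more replicate 1 lay with the controls and replicate 2 did not.

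The vesicular glutamate transporters that mark excitatory neurons were not called. SLC17A7 was at 523 and 521 CPM with FGF2 and at 516 CPM in both controls, and SLC17A6 at 89.3 and 95.5 CPM with FGF2, against 83.9 and 97.1 CPM in controls. Of 21 glutamatergic genes tested 0 were called, with 11 above 0 and 10 below and a median of 0.02 in each FGF2 library. GRIN3A, an NMDA receptor subunit, was at 1.35 and 1.18 CPM with FGF2 and at 0.774 and 0.858 CPM in controls (0.64, 0.01 to 1.27, unadjusted p 0.047). Synaptic genes had 40 of 41 intervals within 2-fold, 0 calls and a median of -0.03, with 0.02 in FGF2 replicate 1 and -0.10 in replicate 2. HOMER1, a postsynaptic scaffold, was at 20.9 and 18.1 CPM with FGF2, against 23.1 and 23.6 CPM in controls (-0.26, -0.48 to -0.05, unadjusted p 0.02).

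Voltage-gated ion channels, 40 of 40 tested and 0 called, had the lowest median of any list in FGF2 replicate 2, at -0.22, and 0.03 in replicate 1. Their median exon length was 8982 bases, against 3909 for all genes tested. CACNA2D3, a calcium channel subunit, was at 5.62 and 6.15 CPM with FGF2 and at 3.57 and 4.51 CPM in controls (0.54, 0.20 to 0.88, unadjusted p 0.004). The sodium channel SCN9A was at 21.5 and 17.5 CPM with FGF2, against 23.7 and 24.8 CPM in controls (-0.31, -0.54 to -0.08, unadjusted p 0.011). Axon guidance genes, all 44 tested and 0 called, had medians of 0.01 in replicate 1 and -0.16 in replicate 2, with a median exon length of 9541 bases. SEMA3E, a repulsive guidance cue, was at 11.3 and 10.9 CPM with FGF2 and at 12.5 and 15.1 CPM in controls, the FGF2 libraries both lower.

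No stem cell or progenitor gene was called. SOX2, which maintains stem cells and neural progenitors, was at 112 and 113 CPM with FGF2, against 113 and 105 CPM in controls. PAX6, a progenitor factor of the dorsal forebrain and eye, was at 18.4 and 18.0 CPM with FGF2 and at 19.7 and 18.9 CPM in controls. HES5, a Notch target of progenitors, was at 17.7 and 18.0 CPM with FGF2 and at 16.2 and 13.3 CPM in controls. The SOX2 groups overlapped, while both FGF2 libraries were just below the controls for PAX6 and above them for HES5. Of 18 neural progenitor genes tested 9 were above 0 and 9 below, and of 11 pluripotency genes 4 were above and 7 below. The progenitor median was 0.04 in each FGF2 library, and the pluripotency median was -0.06 in replicate 1 and -0.10 in replicate 2.

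Cell cycle genes were likewise without a call in 26 mitosis and 27 DNA replication genes, and all 26 and all 27 intervals lay within 2-fold. DNA replication genes had 10 members above 0 and 17 below, with medians of -0.00 in FGF2 replicate 1 and -0.14 in replicate 2. Both FGF2 libraries were below both controls for 7 of the 27 (25.9%, against 12.4% of all genes) and above for 1 (3.7%, against 15.6%). Mitosis genes had 6 members above 0 (23.1%, against 52.2% of all genes) and 20 below. Their median was -0.11, from -0.03 in FGF2 replicate 1 and -0.18 in replicate 2. Both FGF2 libraries were below both controls for 3 of them (11.5%, near the 12.4% of all genes) and above for 0. The proliferation antigen gene MKI67 was at 99.4 and 63.2 CPM with FGF2 and at 110 and 88.1 CPM in controls (-0.28, -0.66 to 0.09). Replicate 1 lay between the controls for MKI67 and replicate 2 below them. RRM1, a subunit of ribonucleotide reductase, was at 69.0 and 71.1 CPM with FGF2, against 83.1 and 81.3 CPM in controls (-0.23, -0.40 to -0.07, unadjusted p 0.0088). For RRM1 the FGF2 replicates lay close together, below both controls. CDKN1C, an inhibitor of cyclin-dependent kinases, was at 418 and 485 CPM with FGF2 and at 380 and 403 CPM in controls (0.20, 0.03 to 0.38, unadjusted p 0.023).

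Stress response genes had 21 of 26 members above 0, a median of 0.09, and 11 members with both FGF2 libraries above both controls, which is 42.3% of the list against 15.6% of all genes. The list has a median exon length of 3443 bases, and of well expressed genes with 2000 to 4000 bases 24.6% had both FGF2 libraries above. The share in the list was higher than that, and the part of length in it was not tested. None of the list was called. SDF2L1, a chaperone cofactor of the endoplasmic reticulum, was at 11.4 and 9.78 CPM with FGF2, against 7.74 and 7.77 CPM in controls (0.45, 0.14 to 0.76, unadjusted p 0.0072). CHAC1, which degrades glutathione under amino acid stress, was at 9.39 and 10.1 CPM with FGF2 and at 7.01 and 8.63 CPM in controls (0.32, 0.02 to 0.63). The list medians were 0.05 in FGF2 replicate 1 and 0.13 in replicate 2. AXIN2, a feedback target of WNT signalling, was at 23.5 and 22.5 CPM with FGF2 and at 17.6 and 19.3 CPM in controls (0.32, 0.09 to 0.54, unadjusted p 0.0087), with both FGF2 libraries above. CRABP2, which carries retinoic acid to its receptor, was at 4.82 and 6.55 CPM with FGF2, against 4.38 and 4.03 CPM in controls (0.43, 0.10 to 0.76, unadjusted p 0.015).

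Among genes of at least 5 CPM whose groups did not overlap, the changes were small at both ends. TPPP3, a tubulin polymerization protein, had the highest log2 change, 0.51 (0.15 to 0.87), at 11.5 and 14.7 CPM with FGF2 and 7.82 and 10.6 CPM in controls. ZBED6 had the lowest, -0.58 (-1.05 to -0.10), at 6.00 and 3.15 CPM with FGF2 and 6.79 and 6.91 CPM in controls, and 96.0% of its exon bases lie in another gene. No gene of at least 5 CPM had a fitted change beyond 1.5-fold. The 10 genes of smallest unadjusted p at that level were PCSK1N, DOK6, POLR2I, STOX2, RRM2B, TMEM42, UGGT2, FAIM2, ZNF25 and NMRAL1, with p between 0.0034 and 0.0060. PCSK1N, the precursor of an inhibitor of prohormone convertase 1, was at 50.8 and 65.2 CPM with FGF2, against 42.8 and 46.7 CPM in controls. DOK6, an adaptor of the RET receptor, was at 12.0 and 11.9 CPM with FGF2 and at 14.9 and 15.3 CPM in controls. The FGF2 replicates of DOK6 agreed closely and lay below both controls, with a log2 change of -0.34 (-0.54 to -0.13).

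CSPG5, singled out after its values were seen, had the smallest p of all genes tested. This neural chondroitin sulfate proteoglycan (chromosome 3, 47562239 to 47580792, GRCh38) was at 1.46 and 1.59 CPM with FGF2, from 42 and 43 reads, against 0.559 and 0.558 CPM in controls, from 13 reads each. The replicates were nearly equal within each group, and the groups were far apart for so low a level. The log2 change was 1.45 (0.89 to 2.00), at an unadjusted p of 5.7e-05 and an adjusted p of 0.927 in edgeR's quasi-likelihood test. On day 12 CSPG5 was at 32.6 and 32.4 CPM with late FGF2 and at 32.7 and 35.3 CPM in controls.

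The spread between the 2 early FGF2 libraries followed the length of the transcripts. At 10 CPM or more, 158 of 10144 genes (1.56%) were at least 1.5-fold apart between the FGF2 replicates, against 10 (0.0986%) between the controls. Across 10134 such genes with an annotated exon length, the ratio of FGF2 replicate 2 to the control mean had a Spearman correlation of -0.62 with exon length, and that of replicate 1 had one of 0.12. With the GC content of the transcripts, the ratios of replicates 2 and 1 had Spearman correlations of 0.43 and 0.16. The parts of length and GC content were not separated. Genes share their library here and are not independent. For exons of at most 1000 bases in sum the median log2 ratio to the controls was -0.02 in FGF2 replicate 1 and 0.26 in replicate 2, and above 12000 bases it was 0.03 in replicate 1 and -0.26 in replicate 2.

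**Figure D3:**
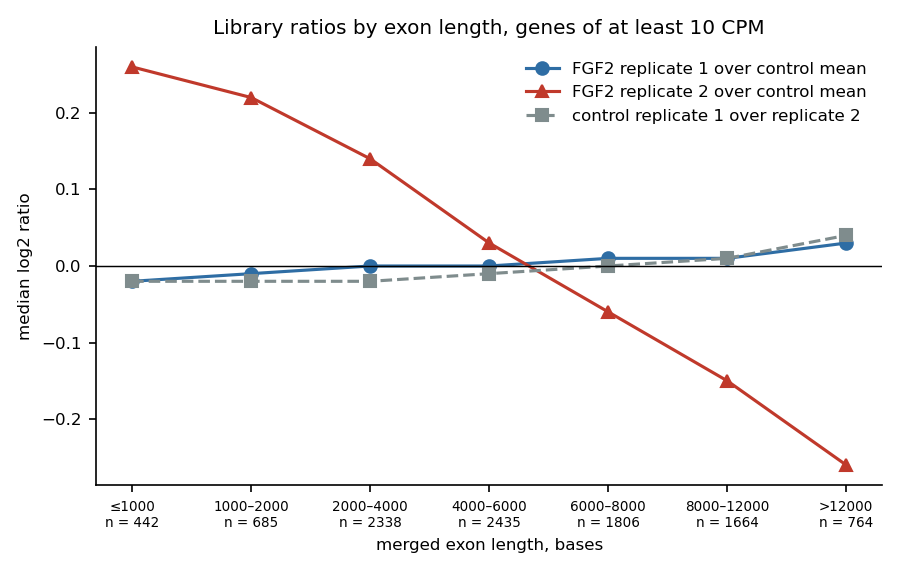
Median log2 ratio (vertical axis) by merged exon length in bases (horizontal axis, with the number of genes) for genes of at least 10 CPM. FGF2 replicate 2 over the control mean declines with length in each step, between 0.26 and -0.26, while FGF2 replicate 1 over the control mean and control replicate 1 over replicate 2 stay within 0.04 of 0.

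Single genes differed between the FGF2 replicates in both directions. KCNQ1OT1, a very long noncoding RNA with 91667 exon bases, was at 32.8 CPM in FGF2 replicate 1 and 12.8 CPM in replicate 2, against 27.4 and 22.2 CPM in the controls. PHC3, a Polycomb subunit with 16919 exon bases, was at 17.3 CPM in FGF2 replicate 1 and 7.63 CPM in replicate 2, against 16.1 and 14.1 CPM in the controls. In the other direction PET100, a small assembly factor of the respiratory chain, was at 8.32 CPM in FGF2 replicate 1 and 15.5 CPM in replicate 2, against 11.9 and 12.0 CPM in the controls. Replicate 1 was the nearer to the controls for the long transcripts, and for PET100 the controls lay between the FGF2 replicates. The 2 genes most raised in FGF2 replicate 2 over replicate 1, NLRP2 with 6313 exon bases and ZNF558 with 8184, are not short. ZNF558 was at 20.0 and 41.4 CPM with FGF2 and at 21.1 and 41.8 CPM in controls, so it followed the replicate number in both groups, as NLRP2 and PCDHA10 did.

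**Figure D4:**
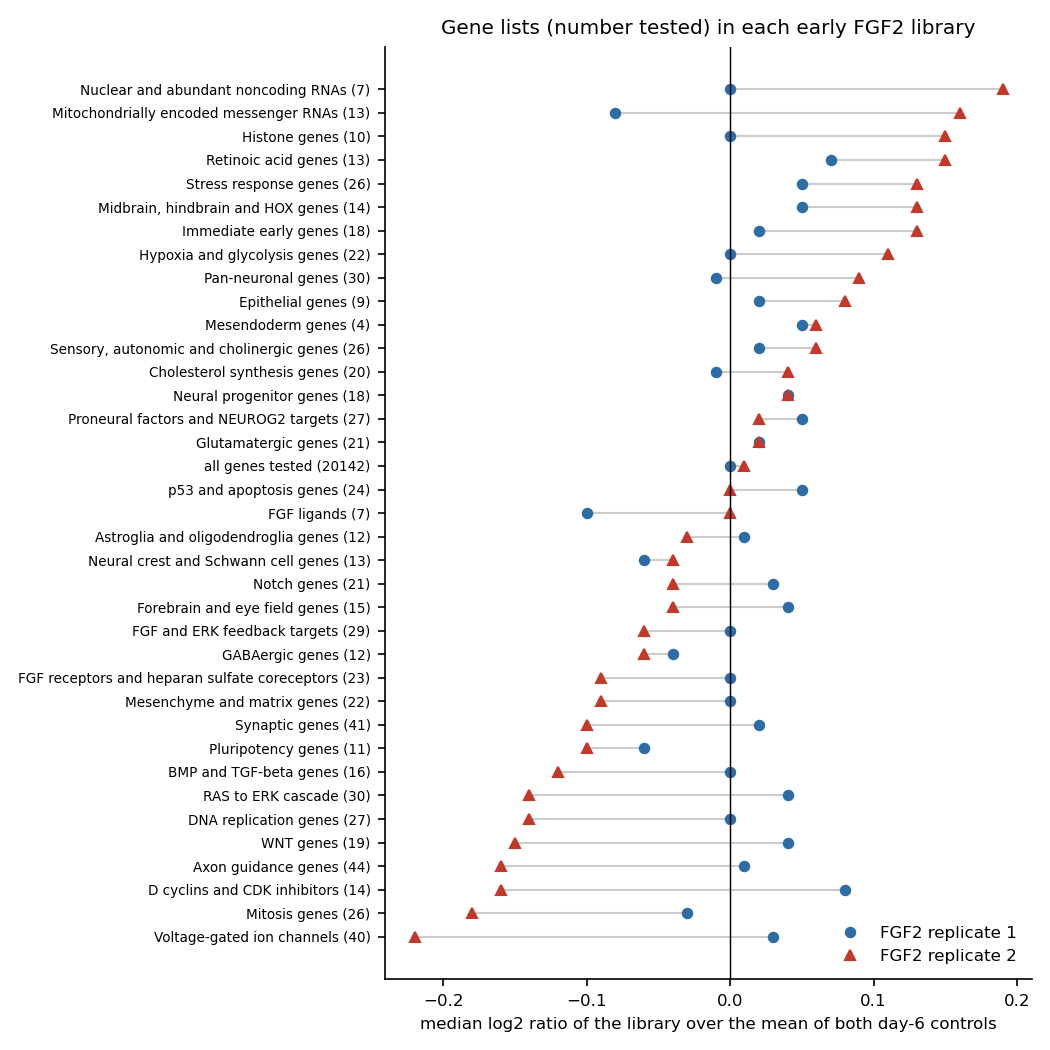
Median log2 ratio over the mean of both day-6 controls (horizontal axis) for each gene list and for all genes tested, with the number of genes tested in brackets; circles are FGF2 replicate 1 and triangles FGF2 replicate 2. Replicate 1 medians run from -0.10 to 0.08 and replicate 2 medians from -0.22 to 0.19, with ion channels, mitosis and axon guidance genes lowest in replicate 2.

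Over the 36 gene lists, 30 had a median within 0.05 of 0 in FGF2 replicate 1 and 10 did in replicate 2. No list held a called gene. Which early FGF2 library was kept decided the count of calls over all genes. Without FGF2 replicate 1, replicate 2 was the only FGF2 library, and many genes were called in both directions. Median exon lengths were 2669 bases for those called higher and 9990 for those called lower. These genes were picked by their values in replicate 2, so their ratios in it follow from the selection. Over the controls, their median log2 ratios in replicate 2 were 0.3 and -0.36, in that order. In the replicate 1 left out, the same medians were 0.01 and 0.02. Without FGF2 replicate 2 there were 0 calls, as there were without either control. When a trend of each library on exon length was taken out, a step chosen after the data were seen, there were 0 calls with all libraries, 1238 without FGF2 replicate 1 and 0 without replicate 2. RNA quality values were not used here, and the part of RNA quality or library preparation in the spread of replicate 2 was not tested.

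The day-12 libraries show what the same factor did later, in cells without doxycycline. With late FGF2, 437 genes (2.17%) were called, 329 (1.63%) higher and 108 (0.536%) lower. The early minus late difference in the FGF2 effect was called for 147 genes (0.73%) in edgeR's quasi-likelihood test, 17 (0.0844%) higher and 130 (0.645%) lower on day 6. The early and late comparisons share no library. The day of harvest, the presence of doxycycline with high NEUROG2, and the early days in E8 all differ between them and cannot be told apart. Without early FGF2 replicate 1 the count was 1352 and without early FGF2 replicate 2 it was 335. It was 79 and 83 without early control replicate 1 or 2, 93 and 84 without late FGF2 replicate 1 or 2, and 95 and 75 without late control replicate 1 or 2.

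Of the 29 feedback genes tested, 18 were called higher with late FGF2 (1.63% of all genes) and 0 lower, and 14 were called in the difference, all lower on day 6. Without KITLG and SHC4, listed for their day-12 response, these were 16 and 12 of 27. ETV4 had the largest: -5.83 on the log2 scale (-6.44 to -5.23, adjusted p 2.78e-08 in edgeR's quasi-likelihood test), with a log2 change of -0.02 early and 5.81 late. SPRY4 differed by -3.49 (-3.92 to -3.06, adjusted p 2.16e-07) and DUSP6 by -2.96 (-3.26 to -2.67, adjusted p 2.53e-08). DUSP6 and ETV4 were far below the late FGF2 level on day 6, but SPRY4 was not: its day-6 values, 79.3 and 57.6 CPM with FGF2 and 89.4 and 80.9 CPM in controls, stood near the 68.1 and 68.0 CPM of late FGF2 and above the 8.60 and 6.44 CPM of late controls. SPRY2 likewise stood at 31.8 and 31.4 CPM with early FGF2 and 30.1 and 30.5 CPM in early controls, against 46.3 and 46.7 CPM with late FGF2 and 13.3 CPM in both late controls.

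**Figure D5:**
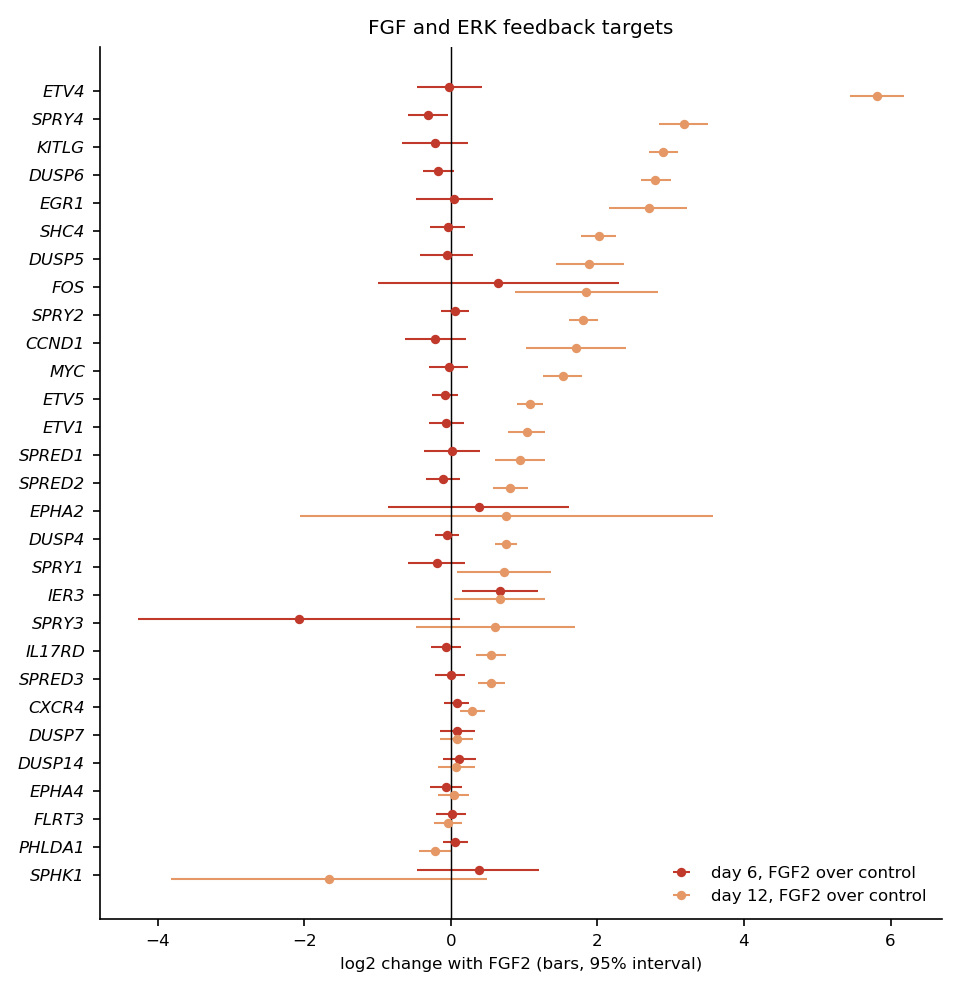
Log2 change with FGF2 (horizontal axis) and its 95% interval for the 29 feedback genes tested, on day 6 (red) and day 12 (orange), ordered by the day-12 change. The day-6 points lie around 0, from -0.31 for SPRY4 to 0.67 for IER3 apart from the poorly measured SPRY3, while ETV4, SPRY4, KITLG, DUSP6 and EGR1 lie furthest to the right on day 12.

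The genes called on day 12 were centred near 0 on day 6. The 329 genes called higher with late FGF2 had a median log2 change of 0.81 late and -0.01 early, and 149 of them (45.3%) were above 0 on day 6, against 52.2% of all genes. For 284 of the 329 the early interval lay within 2-fold. Both early FGF2 libraries were above both controls for 29 (8.81%, against 15.6% of all genes) and below for 46 (14.0%, against 12.4%). The 108 genes called lower with late FGF2 had medians of -0.61 late and -0.03 early, with 86 early intervals within 2-fold. A total of 17 genes differed in the other direction, with the higher log2 change on day 6. JUN was one of them, at 0.18 early and -0.53 late (difference 0.70, adjusted p 0.00526 in edgeR's quasi-likelihood test), as were AXIN2, CACNA2D3, PHOX2A and CSPG5. Each of these 5 lost the call when 1 of several libraries was left out, and they do not stand for all 17. Of the rest, ANOS1 differed by 1.82 (adjusted p 0.000186 in the same test), at -0.09 early and -1.91 late. PDZRN3 differed by 1.20 (adjusted p 0.00114 in the same test), at 0.04 early and -1.16 late. Whether ANOS1 and PDZRN3 keep the call with a library left out was not looked at here. The call of JUN was lost without early control replicate 2, late FGF2 replicate 2 or late control replicate 2, at adjusted p of 0.0816, 0.0750 and 0.0817 in edgeR's quasi-likelihood test, with differences of 0.64, 0.67 and 0.65.

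In the authors' deposited tables the early comparison also gave 0 genes at an adjusted p under 0.05, in DESeq2 and in limma, for 17705 genes. At an unadjusted p under 0.05 the authors' deposited tables list 37 genes with DESeq2 and 251 with limma. For SPRY4 the authors' deposited tables give log2 changes of -0.18 with DESeq2 and -0.34 with limma, and for ETV4 they give -0.01 and -0.03.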

How the data were processed

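Libraries from Trizol total RNA (TruSeq RNA v2, which does not keep strand) were read as 50-base single ends on a HiSeq 2500, per the labels' protocols. The deposited table holds raw counts per gene, and the submitters' processing notes name Subread, featureCounts 1.5.0, GRCh38, limma and DESeq2. The authors' deposited comparison tables give log2 changes and p-values, whose further settings are not given in the sources used here. A further 26 per-sample columns were not used. From the counts, edgeR 4.0.16 (R 4.3.3) fitted 1 mean for each of the 4 groups to 8 libraries, with filterByExpr, TMM scaling and quasi-likelihood tests adjusted by Benjamini-Hochberg. The biological coefficient of variation was 7.47%. Intervals came from the change and its test statistic. Per-library log2 ratios used a pseudocount of 0.5 CPM. DESeq2 1.42.0 and limma 3.58.1 were alternatives. The fit was tested on simulated data with a common spread for all libraries and no length trend between the early groups. That test cannot speak to the wider spread between the early FGF2 replicates. Exon lengths covered 20006 of 20142 genes (99.3%). Gene names came from the authors (17705) or the reference (39375).

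Members and gene lists were chosen with earlier results of these data known. Genes were named by rule: NEUROG2, NEUROD1, FGF2, its receptors, ETV4 and DUSP6, the feedback list, the 10 highest, 10 lowest and 10 smallest p at 5 CPM or more, the 10 largest replicate ratios each way at 10 CPM or more, and up to 4 genes of each list with the smallest p. Other genes named for a marker or a list's sense were chosen after their values were seen.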

Additional observations from a re-analysis of the deposited data

Results flagged for a closer look

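The FGF2 effect differed between day 6 and day 12 for 147 genes in edgeR's quasi-likelihood test of the early minus late difference, each at an adjusted p under 0.05. Differences below are early minus late log2 changes, and a negative value means a smaller or more negative change on day 6.

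Of the feedback genes, ETV4 differed by -5.83, SPRY4 by -3.49, KITLG by -3.12, DUSP6 by -2.96 and EGR1 by -2.65. The adaptor SHC4 differed by -2.06, the phosphatase DUSP5 by -1.95, CCND1 by -1.91, SPRY2 by -1.75 and the growth regulator MYC by -1.56. Smaller differences were those of ETV5 at -1.16, ETV1 at -1.10, SPRED2 at -0.91 and DUSP4 at -0.81. The day-6 change itself passed the test for none of these 14 genes.

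Transcription factors outside that list also differed. PAX5, a factor of the midbrain and of B cells, was at 47.8 and 35.0 CPM with early FGF2 and 49.5 and 44.2 CPM in early controls, and differed by -1.91. SOX8 was at 7.56 and 7.55 CPM with early FGF2, against 8.81 and 8.93 CPM in early controls, and differed by -1.39. The sodium channel SCN9A differed by -0.74 and the guidance cue SEMA3E by -0.97.

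A total of 17 genes had the higher log2 change on day 6, and only some of them are given here. PHOX2A, an autonomic neuron factor, was at 10.5 and 13.8 CPM with early FGF2 and 9.24 and 11.5 CPM in early controls, and differed by 1.34. CSPG5 differed by 1.51, CACNA2D3 by 1.20, AXIN2 by 0.71 and JUN by 0.70. For CSPG5 the change on day 6 was the larger in size, 1.45 early and -0.06 late. For the other 4 the day-12 change was, being 0.23 early and -1.11 late for PHOX2A, 0.54 and -0.66 for CACNA2D3, 0.32 and -0.39 for AXIN2 and 0.18 and -0.53 for JUN.

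Some calls were lost when 1 library was left out, and the differences kept their sign. AXIN2 lost the call without either early control, either late FGF2 or either late control library, at adjusted p between 0.115 and 0.319 in edgeR's quasi-likelihood test and with differences of 0.64 to 0.78. SCN9A lost it without any one of the same 6 libraries, at adjusted p between 0.058 and 0.219. CSPG5 lost it without either early control (0.149 and 0.138), late FGF2 replicate 2 (0.0563) or late control replicate 2 (0.0687), with differences of 1.45 to 1.51, and in limma voom without and with library weights (adjusted p 0.14 and 0.174). CACNA2D3 lost it without early control replicate 1, late FGF2 replicate 2 or late control replicate 2, and PHOX2A without replicate 1 of the early control, late FGF2 or late control. SEMA3E lost it without early control replicate 2. Of the feedback genes, SPRED2 lost it without early control replicate 1, either late FGF2 library or late control replicate 2, and CCND1 without early control replicate 1 or any late library. CCND1 also lost it in limma voom (adjusted p 0.108) and at 10 CPM or more (adjusted p 0.0976).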

How the results depend on the processing

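The count of 0 calls with early FGF2 stayed at 0 under DESeq2, limma voom with and without library weights, the 4 day-6 libraries alone, DESeq2 size factors, library totals, both filters, the removed length trend and the replicate block. Leaving out 1 library gave 0 to 2541 calls, and 1238 without early FGF2 replicate 1 after removing the length trend. The lone sample was assumed to vary like the other groups. The 147 genes in the early minus late difference became 268 with no filter, 84 at 10 CPM or more, which tests fewer genes, 75 to 1352 leaving out 1 library, and 993 or 378 with the length trend removed and without early FGF2 replicate 1 or 2; other settings gave 132 to 220. Genes with an interval within 2-fold numbered 10141 at 10 CPM or more, where fewer were tested, and 14034 to 20396 otherwise. The 1.56% of genes at least 1.5-fold apart between the early FGF2 replicates was 0.493% with the length trend removed. CSPG5 was called early without FGF2 replicate 1, as many other genes were, in a fit with a lone FGF2 library. With no filter 1385 genes had an unadjusted p under 0.05, and at 10 CPM or more 231. Same-numbered libraries had a correlation of deviations of 0.39 between the early groups and -0.00 to 0.19 for the other pairs of groups. The labels do not say what the number marks, and the fit reported has no block. The early value leaves pairing possible on day 6. In addition, 12 genes followed the number in the same direction in all 4 groups, so a difference that goes with the number was present on both days. For GDA the late libraries numbered 1 and 2 were at 1.91 and 0.165 CPM with FGF2 and at 1.91 and 0.0854 CPM in controls. The p-values and intervals of the fit reported ignore any such pairing. The replicate block gave 0 early calls, 206 in the difference and 1016 early genes at an unadjusted p under 0.05. None of the early minus late differences of the 23 genes named under that test reversed, and 41 of 430 recomputed values lost the call. Where a value moved, the cause was not tested. Depth limits genes below 1 CPM.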

Other observations

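A set of genes followed the replicate number rather than FGF2, in an added edgeR quasi-likelihood test of number 2 over number 1 in all 8 libraries, chosen after seeing the data. It called 12 genes, 7 higher and 5 lower in the libraries numbered 2. NLRP2, an inflammasome family gene, was at 18.4 and 46.8 CPM in early FGF2 replicates 1 and 2, and at 16.7 and 41.3 CPM in the early controls (log2 0.90, adjusted p 0.000466). ZNF558, a zinc finger gene, was at 20.0 and 41.4 CPM in the early FGF2 replicates and at 21.1 and 41.8 CPM in the early controls (log2 0.87, adjusted p 2.55e-06). In both genes each replicate 2 was above each replicate 1. GDA, guanine deaminase, was at 1.07 and 0.0370 CPM in the early FGF2 replicates and at 1.20 and 0 CPM in the early controls (log2 -4.27, adjusted p 3.12e-05).

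The other 9 were LINC01139, LINC00467, UVRAG, ABCD2 and PCDHA10, higher in number 2, and AMT, PCDHGC3, ZNF354C and PCDHB16, lower in number 2. The labels do not say what the number marks.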
